A study of Mus musculus with 15 samples.

Results

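The axon guidance ligands and receptors of the mouse are described here by their RNA levels in the hippocampus of old mice. The set comprised 69 protein-coding genes of 55401 in the annotation, and was chosen by gene symbol: the Eph receptors and ephrins, the semaphorins and plexins, the neuropilins, the Slit and Robo genes, and the netrins with their receptors Dcc and Unc5a to Unc5d. All 69 were among the 19536 genes with enough reads to be tested. RNA sequencing was performed on hippocampi of 15 female mice in 4 groups. The paper's methods give the age of the animals as 18 to 20 months, while its discussion names an older age when treating spine density. The WT mice comprised 4 on vehicle and 4 on DHA, and the Tg2576 mice 4 on vehicle and 3 on DHA. Docosahexaenoic acid (DHA), an omega-3 fatty acid, was given daily at 450 mg/kg for 5 weeks, and sesame oil served as the vehicle. Tg2576 mice (labelled Tg2576 +/+) carry a human amyloid precursor protein transgene with the Swedish mutation, expressed from the prion promoter, and the WT mice (labelled -/-) were littermates without it. The question was how genotype and DHA, alone and together, relate to the expression of these genes.

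Axon guidance proteins were first described as cues that attract or repel growing axons. Ephrins are ligands bound to the cell surface and signal through Eph receptor tyrosine kinases. Semaphorins signal through plexins, for many secreted semaphorins with a neuropilin as the binding partner. Slits repel axons through Robo receptors, and netrins attract them through Dcc or repel them through Unc5 receptors. In the adult hippocampus many of these proteins are found at synapses, where Eph receptors and semaphorins are known to shape dendritic spines.

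Between 17372864 and 46596489 reads were counted per mouse (median 25645977). App was counted at 1572 to 1787 CPM (read counts relative to the scaled library size) in the 8 WT mice and at 2076 to 2787 CPM in the 7 Tg2576 mice, so every library matched its genotype label, although reads of the human transgene and of the mouse gene were not separated. Markers of pyramidal and granule neurons were detected in every mouse, with summed levels of 626 to 858 CPM for CA1, 207 to 278 CPM for CA3 and 250.1 to 395 CPM for the dentate gyrus. Markers of the choroid plexus, a tissue next to the hippocampus, ranged from 60.7 to 5801 CPM between mice of the same group. Levels below are CPM after scaling with the TMM factors of edgeR. Differences are log2 fold changes from the quasi-likelihood test of edgeR fitted on all genes, with the unadjusted p of 0.01 that the study used as threshold and the p adjusted by the Benjamini-Hochberg method over all genes tested. These p-values measure the spread between the mice sequenced.

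The 69 genes were expressed over a wide range. Compared per kilobase of gene length, the most abundant was Efnb3, a transmembrane ephrin, with a mean of 57.0 CPM per kb over the 15 mice. It was followed by the secreted repellent Slit1 (55.1 CPM per kb), the netrin receptor Unc5a (54.3 CPM per kb) and Sema7a, a semaphorin anchored in the membrane by a lipid (50.2 CPM per kb). These 4 genes had close means, and their order does not show a difference between them. Among the Eph receptors, Epha4, which binds ephrins of both classes, led with 36.3 CPM per kb, and Ephb6, a receptor without kinase activity, came next with 29.1 CPM per kb. The lead in the other families was held by Efna3 among the A ephrins (21.7 CPM per kb), Plxna1 among the plexins (20.8 CPM per kb) and Sema4f among the class 4 semaphorins (13.05 CPM per kb). Robo3 (6.75 CPM per kb), Nrp2 (6.08 CPM per kb), Ntn5 (5.54 CPM per kb) and Sema3e (4.93 CPM per kb) led families of lower abundance. At the other end, Epha1 had 9 to 40 reads per mouse, Epha2 20 to 88 and Efna4 4 to 44, so values of these genes carry a large counting error.

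**Figure D1:**
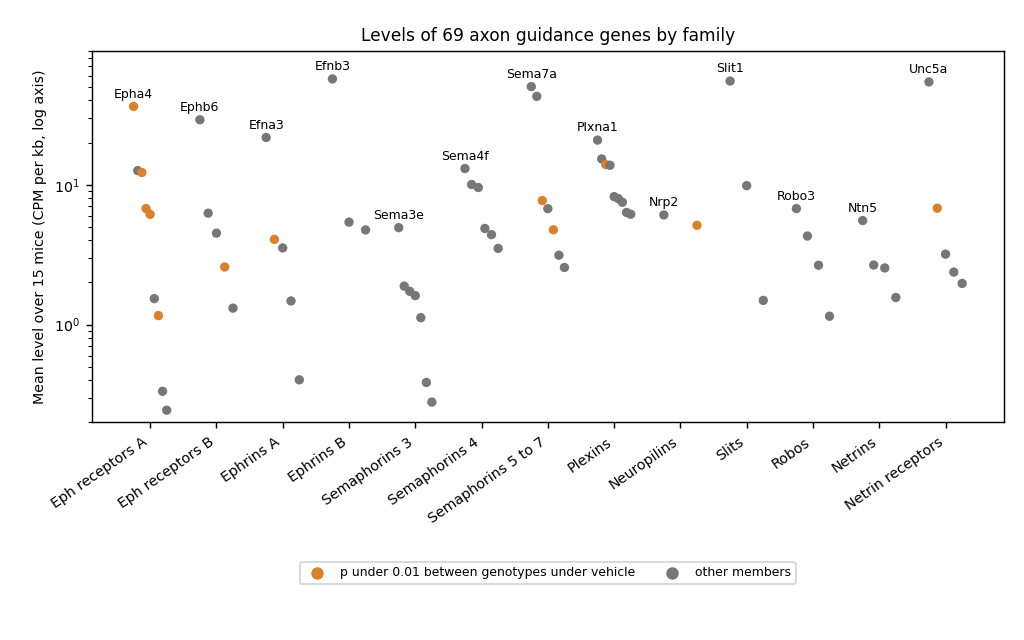
Mean level of each of the 69 genes over 15 mice in CPM per kilobase (log axis), by family, with the most abundant member of each family named. Orange points mark the 12 genes with a p under 0.01 between genotypes under vehicle, which lie between 1.16 (Epha3) and 36.3 CPM per kb (Epha4).

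When the levels of a family were summed in CPM per kb, the ranges of the WT and Tg2576 vehicle mice overlapped for 11 of the 13 families. With vehicle, the 5 B class Eph receptors summed to 45.8 ± 2.46 in WT and 42.9 ± 2.86 in Tg2576 mice (SD, n = 4 and 4), and the 3 B class ephrins to 69.3 ± 5.14 and 67.6 ± 1.51. The 9 A class Eph receptors summed to 90.2 ± 14.2 in WT vehicle, 75.7 ± 10.7 in WT DHA, 70.1 ± 5.21 in Tg2576 vehicle and 71.6 ± 8.48 in Tg2576 DHA mice (SD, n = 4, 4, 4 and 3), and the ranges of the groups overlapped. The exceptions under vehicle were the class 5 to 7 semaphorins, with sums of 122 to 131 in the WT and 106 to 120.1 in the Tg2576 mice, and the neuropilins, with sums of 10.9 to 15.8 and 7.69 to 10.6. These sums are given as a description, without a test.

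Between Tg2576 and WT mice under vehicle, the guidance genes that differed were mostly receptors, and they were mostly lower in the Tg2576 mice. At p under 0.01, 12 of the 69 genes differed, of which 11 were lower and 1, Efna1, was higher. Among all genes tested, 3.09% had a p under 0.01 and 1.93% were lower with such a p. Of the 34 receptors 9 were lower and 0 higher, with a median log2 fold change of -0.28, while of the 35 ligands 2 were lower and 1 higher, with a median of -0.0527. The difference between ligands and receptors was not tested. Over all 69 genes the median was -0.14, with 44 negative and 25 positive values, against a median of 0.0003 over all genes tested. At p under 0.05 there were 22 genes, 20 of them lower, against 10.7% of all genes tested. No adjusted p was under 0.05 with edgeR as fitted here, and the smallest was 0.0766. With DESeq2 the adjusted p of 8 of the 12 genes was under 0.05 (Epha3, Epha6, Epha7, Ephb2, Sema6d, Plxna4, Nrp1 and Unc5b), and without a filter on low counts that of 1 (Ephb2). With limma-voom and each remaining setting that kept all mice, 0 of the 12 were under 0.05. The 12 genes had been picked by their p in the same mice. No share of all genes with such an adjusted p in DESeq2 is given, so the 8 cannot be set against it. The levels of the 2 groups lay fully apart for 8 of the 69 genes, 7 of them lower in Tg2576 mice, against 5.16% of all genes tested. The count of 12 depended on single mice, being 7 when WT vehicle replicate 1 and 6 when WT vehicle replicate 2 was left out. The share of all genes called in those fits is not given. In bulk tissue, fewer cells of a type and less RNA per cell cannot be told apart.

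**Figure D2:**
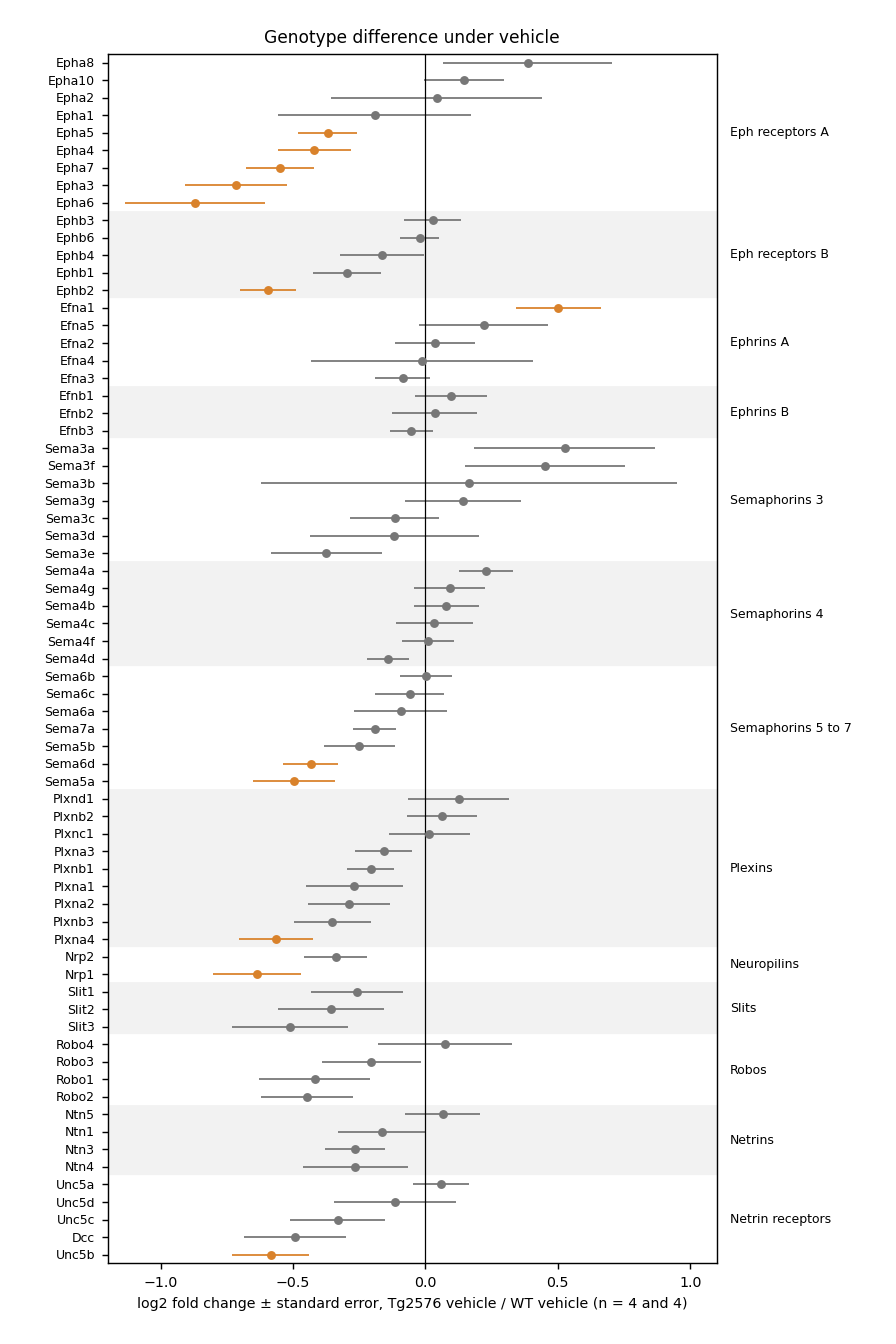
Difference (log2 fold change with its standard error) between Tg2576 and WT mice under vehicle (n = 4 and 4) for each of the 69 genes, grouped by family. Orange marks a p under 0.01, reached by 11 genes to the left of 0, among them 5 of the 9 A class Eph receptors, and by Efna1 to the right.

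Ephb2 (ENSMUSG00000028664.14, chromosome 4, 136647539 to 136835988) is the receptor of B class ephrins best known from excitatory synapses, where it binds NMDA receptors. Its level was 42.9, 41.5, 37.6 and 36.9 CPM in the WT vehicle mice and 22.6, 29.2, 24.7 and 28.7 CPM in the Tg2576 vehicle mice. With DHA it was 36.0, 31.6, 37.6 and 33.8 CPM in WT and 31.7, 24.5 and 29.1 CPM in Tg2576 mice. Under vehicle every Tg2576 mouse was below every WT mouse, and under DHA the lowest WT mouse was just below the highest Tg2576 mouse. The log2 fold change under vehicle was -0.59 (standard error 0.106, edgeR adjusted p = 0.0766), with the smallest exact permutation p that 4 mice against 4 can give (0.0286, two-sided). Over the other settings that kept all mice, its adjusted p ranged from 0.000304 to 0.270. Among the other B class receptors, Ephb6 was at 112 ± 7.83 CPM in WT vehicle and 110.2 ± 5.80 CPM in Tg2576 vehicle mice (SD, n = 4 and 4), with a log2 fold change of -0.0215 (standard error 0.0726). Ephb1 had a log2 fold change of -0.29 (edgeR adjusted p = 0.419), and its unadjusted p was above 0.01.

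Of the 9 A class Eph receptors, which bind lipid-anchored ephrins, 5 were lower in Tg2576 mice under vehicle and 0 were higher. Epha7 (ENSMUSG00000028289.12, chromosome 4, 28813131 to 28967499) was at 143, 186, 121 and 159 CPM in WT vehicle and 101, 97.8, 106 and 111 CPM in Tg2576 vehicle mice. The groups did not overlap, and the Tg2576 mice varied less than the WT mice. The log2 fold change of Epha7 was -0.55 (standard error 0.128, edgeR adjusted p = 0.162). Epha3 (ENSMUSG00000052504.7, chromosome 16, 63543534 to 63864175), at a lower level, was at 13.01, 16.5, 8.45 and 11.9 CPM in WT vehicle and 8.40, 6.95, 7.39 and 7.64 CPM in Tg2576 vehicle mice. Its groups lay apart by a margin set by WT vehicle replicate 3, the lowest of the WT mice, and its log2 fold change was -0.72 (standard error 0.193, edgeR adjusted p = 0.198).

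Epha4, Epha5 and Epha6 were lower on average, but with overlapping groups. Epha4 (ENSMUSG00000026235.14, chromosome 1, 77367185 to 77515088), which restrains spines in hippocampal neurons, was at 374, 399, 267 and 361 CPM in WT vehicle and 284, 267, 266 and 229 CPM in Tg2576 vehicle mice. Its WT vehicle replicate 3 lay within the Tg2576 range, and the log2 fold change was -0.42 (standard error 0.138, edgeR adjusted p = 0.304). Epha5 (ENSMUSG00000029245.16, chromosome 5, 84054761 to 84417382) was at 135, 148, 104 and 131 CPM in WT vehicle and 105, 102, 103 and 90.6 CPM in Tg2576 vehicle mice, with a log2 fold change of -0.37 (standard error 0.112). Epha6 (ENSMUSG00000055540.15, chromosome 16, 59653483 to 60605531) was at 48.7, 50.6, 27.7 and 41.7 CPM in WT vehicle and 32.1, 23.6, 21.0 and 15.9 CPM in Tg2576 vehicle mice, with the lowest log2 fold change of the 69 genes, -0.87 (standard error 0.264). In both of these genes too, WT vehicle replicate 3 was the WT mouse that reached into the Tg2576 range. The 4 remaining A class receptors, Epha1, Epha2, Epha8 and Epha10, had p-values over 0.05.

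Among the ephrins the picture was different. Efna1 (ENSMUSG00000027954.9, chromosome 3, 89271733 to 89281142), an A class ephrin also known from blood vessels, was at 6.50, 4.55, 7.37 and 6.77 CPM in WT vehicle and 9.20, 8.79, 8.42 and 9.35 CPM in Tg2576 vehicle mice. Every Tg2576 vehicle mouse was above every WT vehicle mouse, and the log2 fold change was 0.50 (standard error 0.161, edgeR adjusted p = 0.290). It was also the sole gene of the 12 that was higher in the Tg2576 mice. Under DHA the levels were 6.12, 7.53, 7.81 and 7.58 CPM in WT and 8.39, 5.85 and 7.43 CPM in Tg2576 mice, which overlapped. The most abundant ephrins did not pass the threshold, with log2 fold changes of -0.0527 for Efnb3 and -0.0858 for Efna3, and Efnb1 had 0.0965.

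Of the 20 semaphorins, 2 were lower in Tg2576 mice under vehicle, both of them transmembrane proteins. Sema6d (ENSMUSG00000027200.17, chromosome 2, 124089969 to 124667770), a ligand of class A plexins, was at 111, 100.4, 88.9 and 90.9 CPM in WT vehicle and 67.5, 86.1, 71.7 and 63.7 CPM in Tg2576 vehicle mice. The groups lay apart, with Tg2576 vehicle replicate 2 close below the WT mice, and the log2 fold change was -0.43 (standard error 0.105, edgeR adjusted p = 0.170). Sema5a (ENSMUSG00000022231.10, chromosome 15, 32244810 to 32696341) was at 112, 139, 91.6 and 113 CPM in WT vehicle and 88.3, 98.6, 75.7 and 60.2 CPM in Tg2576 vehicle mice, with a log2 fold change of -0.50 (standard error 0.156, edgeR adjusted p = 0.287). Here the ranges overlapped at WT vehicle replicate 3 and Tg2576 vehicle replicate 2. Sema7a, known for roles in synapse formation, had a log2 fold change of -0.19 (edgeR adjusted p = 0.399). Of the class 4 semaphorins, Sema4a had a log2 fold change of 0.23 (edgeR adjusted p = 0.426), and Sema4f had 0.0103. The 7 secreted class 3 semaphorins showed no call, and their median log2 fold change was positive (0.14). Sema3b was highest in WT DHA replicate 3 (20.4 CPM), the mouse with the highest summed choroid plexus level (5801 CPM), and lowest in WT DHA replicate 1 (1.45 CPM), the mouse with the lowest (60.7 CPM), and the part of choroid plexus tissue in its values was not tested.

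The semaphorin receptors had 2 of 11 genes lower. Plxna4 (ENSMUSG00000029765.12, chromosome 6, 32144268 to 32588192), which signals for class 3 semaphorins together with neuropilins, was at 258, 287, 187 and 235 CPM in WT vehicle and 189, 174, 146 and 145 CPM in Tg2576 vehicle mice. Only WT vehicle replicate 3 reached into the Tg2576 range, and the log2 fold change was -0.56 (standard error 0.140, edgeR adjusted p = 0.173). Nrp1 (ENSMUSG00000025810.9, chromosome 8, 128358604 to 128503363), the binding receptor of Sema3a and also of vascular endothelial growth factor, was at 63.5, 76.3, 49.4 and 57.6 CPM in WT vehicle and 39.0, 40.9, 46.4 and 32.5 CPM in Tg2576 vehicle mice. The groups lay apart, and the log2 fold change was -0.63 (standard error 0.166, edgeR adjusted p = 0.198). The abundant Plxna1 had a log2 fold change of -0.27 (standard error 0.182), which did not pass. The relative of Nrp1, Nrp2, had a log2 fold change of -0.34 (edgeR adjusted p = 0.331), and its unadjusted p was above 0.01. Sema3a, the ligand of Nrp1, was at 3.21 ± 0.444 CPM in WT and 4.60 ± 1.42 CPM in Tg2576 vehicle mice (SD, n = 4 and 4), without a call.

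Among the netrin receptors, Unc5b (ENSMUSG00000020099.8, chromosome 10, 60762593 to 60831581), which mediates repulsion by netrins, was at 55.9, 52.5, 56.3 and 46.7 CPM in WT vehicle and 27.8, 46.1, 33.0 and 33.7 CPM in Tg2576 vehicle mice. The groups lay apart by a small gap between WT vehicle replicate 4 and Tg2576 vehicle replicate 2, and the log2 fold change was -0.58 (standard error 0.144, edgeR adjusted p = 0.170). Unc5a, the most abundant of these receptors, had a log2 fold change of 0.0595. Dcc, the receptor for attraction by netrins, had -0.49 (edgeR adjusted p = 0.376). Of the netrins, Ntn3 had non-overlapping groups at 12.3, 12.3, 16.6 and 13.4 CPM in WT vehicle and 11.8, 11.9, 11.1 and 10.7 CPM in Tg2576 vehicle mice, but its unadjusted p was above 0.01 (edgeR adjusted p = 0.408). The 3 Slit genes and the 4 Robo genes gave 0 calls at p under 0.01 with edgeR, while Slit3 (-0.51, edgeR adjusted p = 0.419) and Robo2 (-0.45, edgeR adjusted p = 0.370) were under 0.05 by the same test.

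**Figure D3:**
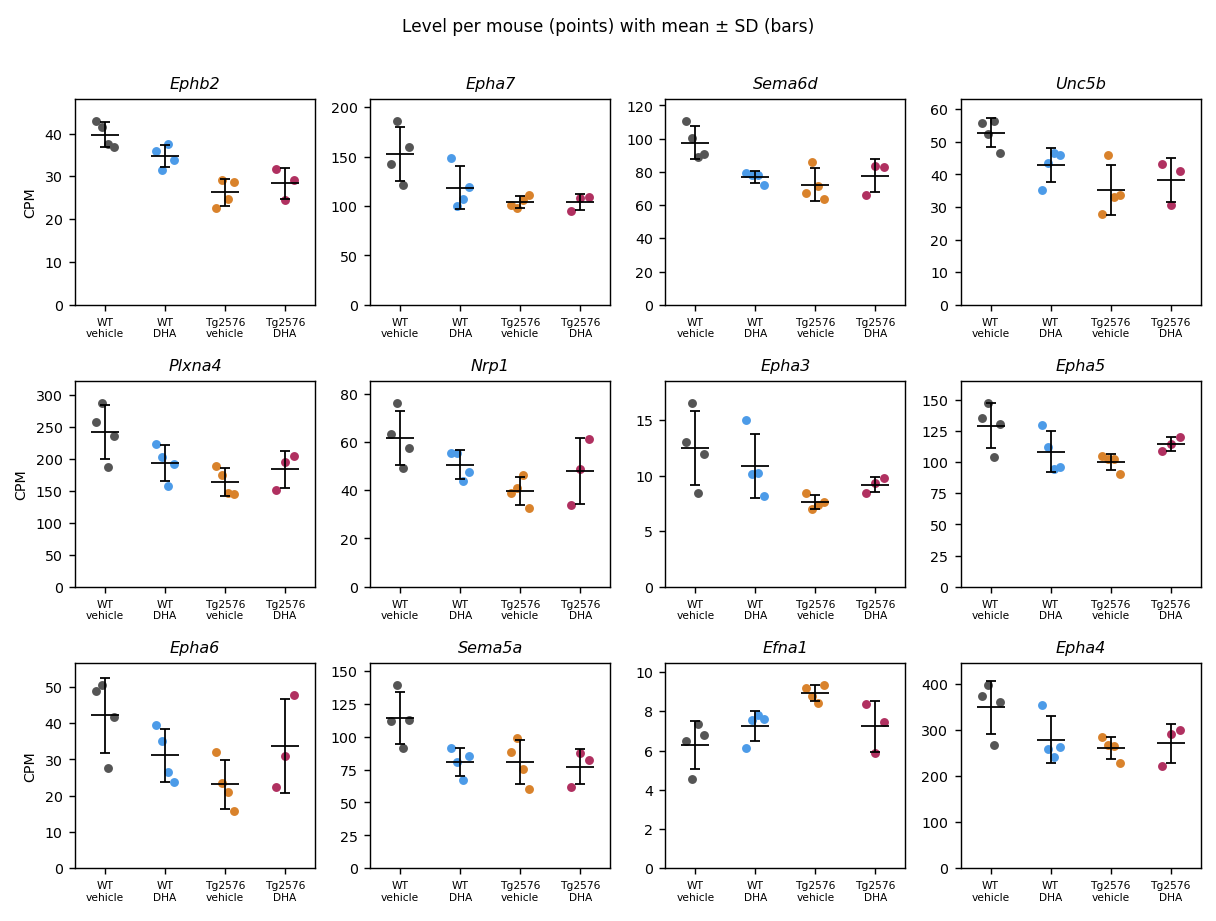
Level in CPM of the 12 genes with a p under 0.01 between genotypes under vehicle, ordered by that p, with 1 point per mouse and the mean ± SD of each group (n = 4, 4, 4 and 3). Ephb2 lay at 36.9 to 42.9 CPM in WT vehicle and 22.6 to 29.2 CPM in Tg2576 vehicle mice, and Efna1 is the panel in which the Tg2576 vehicle mice were the higher group.

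The promoters of the 4 genes with the lowest p under vehicle are printed so that the sequences before the start sites of genes that fell in the same comparison can be compared. The 250 bases before the RefSeq start of each gene (GRCm38.p6) are given in the direction of transcription, and capitals mark the GC box GGGCGG or its complement CCGCCC, a binding motif of Sp1 family factors. They lie at chr4:136836013-136836262 (minus strand), chr4:28812881-28813130 (plus strand), chr2:124089719-124089968 (plus strand) and chr10:60831582-60831831 (minus strand).
Ephb2: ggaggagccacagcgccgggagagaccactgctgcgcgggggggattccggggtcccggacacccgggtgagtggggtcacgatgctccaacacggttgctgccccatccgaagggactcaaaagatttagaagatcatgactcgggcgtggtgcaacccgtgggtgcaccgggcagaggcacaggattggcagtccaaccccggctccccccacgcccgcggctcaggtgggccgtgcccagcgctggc
Epha7: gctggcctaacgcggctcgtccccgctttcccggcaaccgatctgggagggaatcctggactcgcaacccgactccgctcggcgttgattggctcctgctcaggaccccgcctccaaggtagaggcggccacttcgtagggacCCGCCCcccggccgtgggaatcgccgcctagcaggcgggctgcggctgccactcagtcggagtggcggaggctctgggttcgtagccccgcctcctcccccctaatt
Sema6d: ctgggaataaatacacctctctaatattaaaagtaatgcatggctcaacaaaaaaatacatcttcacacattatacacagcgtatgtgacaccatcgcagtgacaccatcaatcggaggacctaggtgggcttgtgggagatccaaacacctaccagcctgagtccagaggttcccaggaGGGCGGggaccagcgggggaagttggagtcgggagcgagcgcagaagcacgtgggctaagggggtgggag
Unc5b: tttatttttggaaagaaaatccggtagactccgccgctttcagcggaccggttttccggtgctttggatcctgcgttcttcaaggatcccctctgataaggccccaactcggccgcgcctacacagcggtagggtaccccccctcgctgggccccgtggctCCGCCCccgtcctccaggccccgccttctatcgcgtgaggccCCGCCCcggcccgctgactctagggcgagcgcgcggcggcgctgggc
The Ephb2 window held 0 GC boxes and 20 CpG dinucleotides, and the Epha7 window 1 GC box and 25 CpG. The Sema6d window held 1 GC box and 9 CpG, with a GC content of 52.4% against 66.8% to 69.2% for the other 3. The Unc5b window held 2 GC boxes and 27 CpG. Promoters of 59 of the 69 genes and of 13008 tested genes were in the reference, matched by symbol. On either strand, a GC box was found in 43 of the 59 (72.9%) and in 55.3% of all, and in 8 of the 10 matched genes that were lower under vehicle. The CRE half-site TGACG was found in 7 of the 59 (11.9%) against 24.9% of all, and the E-box CACGTG in 3 (5.08%) against 7.94%. The median GC content of these windows was 64.8% for the 59 genes and 59.2% for all. Such matches describe the sequence and do not mark a site as used.

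The guidance genes are long, and the median log2 fold change of all genes under vehicle was lower in classes of longer genes. The median length was 6848 bp for the 69 genes and 3693 bp for all genes tested. When all tested genes were ordered by length and cut into 5 classes of about equal size, from the shortest, the median log2 fold change under vehicle was 0.11, 0.0679, 0.0197, -0.0289 and -0.0992. The longest class held 35 of the 69 genes, with a median of -0.29 and 9 of the 12 calls, beside 4.99% of all genes in that class with a p under 0.01. With an offset that removed each library's trend with length, a setting added after the data were seen, 10 of the 69 genes were lower and 0 higher. In this setting 3.20% of all genes had a p under 0.01. The median was -0.0978 for the 69 genes and 0.00636 for all genes. Epha5, Sema5a and Efna1 then passed the threshold no longer, and Ephb2 had a log2 fold change of -0.44. Sema7a, not called without the offset, was among the 10 lower genes (log2 fold change -0.22, edgeR adjusted p = 0.306).

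**Figure D4:**
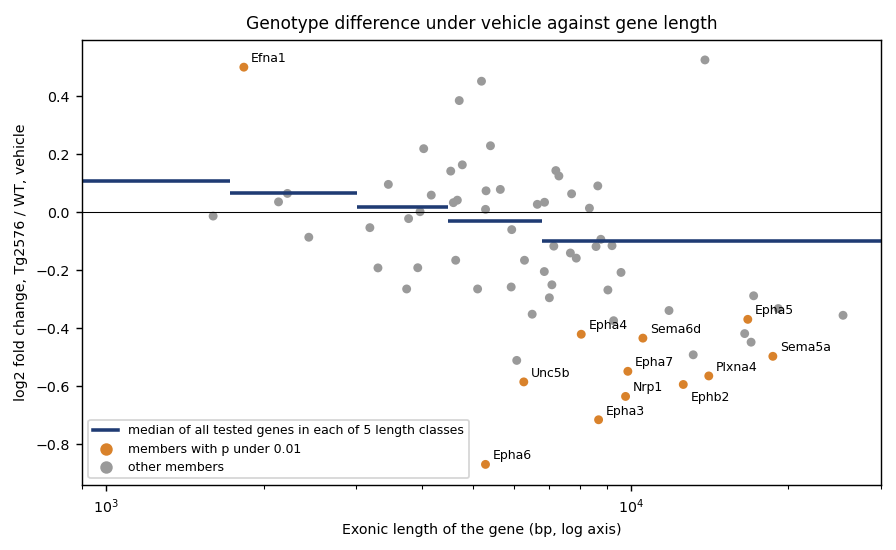
Log2 fold change of Tg2576 over WT mice under vehicle against the exonic length of the gene in bp (log axis) for the 69 genes, with calls at p under 0.01 in orange and named. Blue bars give the median of all tested genes in each of 5 length classes, from 0.11 in the shortest to -0.0992 in the longest, and 11 of the 12 called genes lie below the bars.

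Of 19 lists of cell type and region markers, 5 had sums that lay apart between the vehicle groups, and all of their markers were detected in every mouse. Single genes lay apart for 5.16% of all genes tested. No such share is given for sums over lists, here or in the later comparisons, so these counts are a description. The 5 astrocyte markers summed to 1378 to 1566 CPM in WT and 1620 to 2299 CPM in Tg2576 mice, with Gfap, the most abundant of them, as the 1 marker higher at p under 0.01, while the median log2 fold change of the 5 was -0.0740. The 5 interneuron markers (2 lower) summed to 695 to 924 CPM in WT and 626 to 686 CPM in Tg2576 mice, and 2 of the 5 had positive log2 fold changes. The 4 oligodendrocyte precursor markers (0 called, 0 positive) summed to 115 to 125 CPM in WT and 77.4 to 111 CPM in Tg2576 mice. The 5 dentate gyrus markers (1 lower, 1 with a positive value) were only just apart, at 329 to 395 CPM in WT and 259 to 328 CPM in Tg2576 mice. The 4 CA3 markers (1 lower, 1 with a positive value) summed to 249 to 278 CPM in WT and 207 to 245 CPM in Tg2576 mice. The pan-neuronal sums overlapped, at 5111 to 5891 CPM in WT and 5427 to 5493 CPM in Tg2576 vehicle mice, and 0 of the 5 pan-neuronal markers had a p under 0.01. The part of cell composition in the lower levels of the guidance genes was not tested.

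The calls under vehicle differed in how far they depended on a single mouse. Ephb2, Epha7, Sema6d, Unc5b, Plxna4 and Nrp1 kept a p under 0.01 in all 15 fits that left out 1 mouse. Epha3 lost it without WT vehicle replicate 2. Epha4 lost it without Tg2576 vehicle replicate 2, 3 or 4 or WT vehicle replicate 1, 2 or 4. Epha5 lost it without Tg2576 vehicle replicate 4 or WT vehicle replicate 1, 2 or 4. Epha6 lost it without Tg2576 vehicle replicate 2, 3 or 4 or WT vehicle replicate 1 or 2. Sema5a lost it without Tg2576 vehicle replicate 3 or 4 or WT vehicle replicate 1, 2 or 4. Efna1 lost it without Tg2576 vehicle replicate 1, 2 or 4 or WT vehicle replicate 1 or 2. The direction was kept in each of these fits, and over these and the other settings the log2 fold change ranged from -0.86 to -0.54 for Epha3, -0.53 to -0.34 for Epha4, -0.46 to -0.18 for Epha5, -1.06 to -0.71 for Epha6, -0.61 to -0.30 for Sema5a and 0.39 to 0.58 for Efna1.

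Between the genotypes under DHA, 1 of the 69 genes (1.45%) differed at p under 0.01, and the median log2 fold change was -0.0779. That share is no larger than the 1.75% of all genes tested, so the call is given as a value. The call was Efna4, a lipid-anchored ephrin with very few reads, at 0.528, 0.455, 0.207 and 0.480 CPM in WT DHA and 1.58, 1.30 and 0.697 CPM in Tg2576 DHA mice. The groups lay apart, with a log2 fold change of 1.50 (standard error 0.443, edgeR adjusted p = 0.536), and the exact permutation p of 0.0571 is the smallest that 4 mice against 3 can give, so that 0.05 cannot be reached. The call was lost when Tg2576 DHA replicate 1, Tg2576 DHA replicate 2 or WT DHA replicate 3 was omitted, and the gene was not tested where at least 10 counts in every mouse were asked for. Without Tg2576 DHA replicate 1 the count of called members was 2, and without either of the other 2 mice it was 0, with no share of all genes given for these fits. Of the 19 marker lists, 5 had sums that lay apart between these groups (microglia, plaque-associated microglia, astrocytes, oligodendrocyte precursors and interneurons). The 5 microglial markers, of which 4 were higher in Tg2576 mice, summed to 215 to 252 CPM in WT DHA and 284 to 378 CPM in Tg2576 DHA mice, and the part of these cells in the value of Efna4 was not tested. Ephb2 (-0.29, edgeR adjusted p = 0.656) and Unc5a (-0.25, edgeR adjusted p = 0.712) were the other genes with a p under 0.05, which 6.86% of all genes had.

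This comparison shares no mouse with the one under vehicle, so the 11 genes that were lower under vehicle could be looked at in other animals. Of these, 8 had a negative log2 fold change under DHA, with a median of -0.0767 and a range of -0.29 to 0.11. Of all 69 genes, 50 were negative, with a median of -0.0779, so the 11 genes did not stand out from the set. None of the 11 had a p under 0.01 (0 with edgeR, DESeq2 and limma-voom), and 1, Ephb2, had a p under 0.05. Epha7 had -0.18 (standard error 0.138), Unc5b -0.16 (standard error 0.155), Nrp1 -0.0779 (standard error 0.179) and Sema6d 0.0124 (standard error 0.114). Efna1, higher under vehicle, had -0.00853 (standard error 0.174). Whether the genotype difference itself changed with DHA is given by the interaction, described after the effects of DHA.

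DHA in WT mice gave 2 calls among the 69 genes, both semaphorins and both lower with DHA, against 1.38% of all genes tested. Sema6d was at 111, 100.4, 88.9 and 90.9 CPM in WT vehicle and 79.6, 78.2, 78.1 and 71.9 CPM in WT DHA mice, without overlap, with a log2 fold change of -0.34 (standard error 0.105, edgeR adjusted p = 0.600). Sema5a was at 112, 139, 91.6 and 113 CPM and 91.7, 80.4, 66.8 and 85.0 CPM, with a log2 fold change of -0.49 (standard error 0.156, edgeR adjusted p = 0.637), and its ranges touched at WT vehicle replicate 3 and WT DHA replicate 1. Another 8 genes had a p under 0.05, so that 10 of the 69 did against 5.92% of all genes. Of these 10 genes, 8 were lower and 2 higher with DHA. Among the higher was Plxnd1, the receptor of Sema3e, at 53.8, 46.9, 52.4 and 45.3 CPM with vehicle and 53.9, 97.5, 72.3 and 60.7 CPM with DHA (log2 fold change 0.52, edgeR adjusted p = 0.749). All 11 genes that were lower in Tg2576 mice under vehicle also had negative values here, with a median of -0.32. Of these, 7 had a p under 0.05 with edgeR. The WT vehicle mice are the same animals as in the genotype comparison under vehicle, so the 2 comparisons are not independent. The 11 genes were chosen partly by their levels in these mice, which favours negative values and small p-values here. Their results in this comparison are therefore given as values. Sema6d and Sema5a, the 2 calls, are themselves among the 11. Summed markers of 2 kinds lay apart between these groups. The 5 markers of layer 6b and claustrum (3 higher) summed to 63.1 to 80.4 CPM with vehicle and 101 to 139 CPM with DHA, and the 5 microglial markers (1 lower) to 257 to 288 CPM and 215 to 252 CPM, and their part in these values was not tested.

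The 2 calls in WT mice rested on few animals. Sema6d lost its p under 0.01 without WT vehicle replicate 1 or 2 or WT DHA replicate 4, and Sema5a without WT vehicle replicate 1, 2 or 4 or WT DHA replicate 2 or 3. Over all settings, the log2 fold change ranged from -0.39 to -0.26 for Sema6d and -0.58 to -0.35 for Sema5a. No call was left (count of 0) when WT vehicle replicate 1 or 2 was omitted, and 1 when WT vehicle replicate 4 or WT DHA replicate 2 or 4 was omitted. Omitting Tg2576 vehicle replicate 4 gave 4 calls, omitting WT DHA replicate 1 gave 6, and omitting WT vehicle replicate 3 gave 8. The last is the WT vehicle mouse with the lowest Sema6d and Sema5a, and also with the lowest Epha3, Epha4, Epha5, Epha6, Epha7, Plxna4 and Nrp1. These counts stand without the share of all genes called in the same fits, so they cannot be read as particular to the guidance genes.

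In Tg2576 mice, 0 of the 69 genes passed p under 0.01 between DHA and vehicle with edgeR, DESeq2 or limma-voom, where 0.353% of all genes did with edgeR. At p under 0.05 there were 3 of the 69 genes, a share close to the 3.16% of all genes, and they are given as values. Efna4 was at 0.341, 0.388, 0.902 and 0.569 CPM with vehicle and 1.58, 1.30 and 0.697 CPM with DHA (log2 fold change 1.11, edgeR adjusted p = 0.999). Ntn5 was at 12.3, 14.4, 10.8 and 15.4 CPM and 9.79, 9.31 and 11.5 CPM (log2 fold change -0.38, edgeR adjusted p = 0.999). Efnb2, a transmembrane ephrin that binds Eph receptors of the B class, was at 31.8, 39.1, 32.6 and 31.3 CPM and 33.1, 47.4 and 51.3 CPM (log2 fold change 0.38, edgeR adjusted p = 0.999). All 3 had overlapping groups. The 69 genes had a median of 0.0356. The 34 receptors had 24 positive and 10 negative log2 fold changes, and the 35 ligands 18 and 17. The median of all genes was -0.062 in the shortest and 0.050 in the longest of the 5 length classes, and with the length offset the median of the 69 was 0.00188, with 34 negative values. Omitting Tg2576 DHA replicate 1 gave 4 calls, Tg2576 DHA replicate 3 gave 1 and Tg2576 vehicle replicate 3 gave 3, without a share of all genes beside them. The sums of the 4 thalamus markers (1 lower) lay apart, at 82.8 to 101 CPM with vehicle and 72.7 to 77.8 CPM with DHA. The choroid plexus markers summed to 140 to 3148 CPM with vehicle and 3089 to 5138 CPM with DHA, which overlapped. The part of such tissue in the values of the guidance genes was not tested.

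The interaction of genotype and DHA, which asks whether DHA acted differently in the genotypes, passed p under 0.01 for 0 of the 69 genes with edgeR, beside 0.829% of all genes. The count was 2 with DESeq2 and 0 with limma-voom, and 8 genes had a p under 0.05 with edgeR, against 5.12% of all genes. The smallest p was that of Sema6d (edgeR adjusted p = 0.845), with an interaction of 0.45 (standard error 0.155) on the log2 scale. It was followed by Epha5 (0.45, edgeR adjusted p = 0.845) and Epha6 (0.98, edgeR adjusted p = 0.845), while Efna1 had a negative interaction (-0.51, edgeR adjusted p = 0.845). For Ephb2 the interaction was 0.30 (standard error 0.155, edgeR adjusted p = 0.845). The interaction contains the genotype difference under vehicle with its sign reversed, and that difference chose the 11 lower genes. All 11 had a positive interaction (median 0.45), which this choice favours, so their interactions are given as values. The median interaction of all genes rose with gene length, from -0.11 in the shortest to 0.12 in the longest of the 5 length classes. With the length offset, the median of the 69 genes was 0.0402, against 0.0941 without it. Sema6d then had an interaction of 0.30, Epha5 0.26 and Epha6 0.95. Counts at p under 0.01 were 4 without Tg2576 DHA replicate 1 or WT vehicle replicate 3, 2 without Tg2576 vehicle replicate 1 or 2, and 1 without Tg2576 vehicle replicate 3, Tg2576 DHA replicate 2, WT vehicle replicate 4 or WT DHA replicate 1. No share of all genes is given beside these counts.

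**Figure D5:**
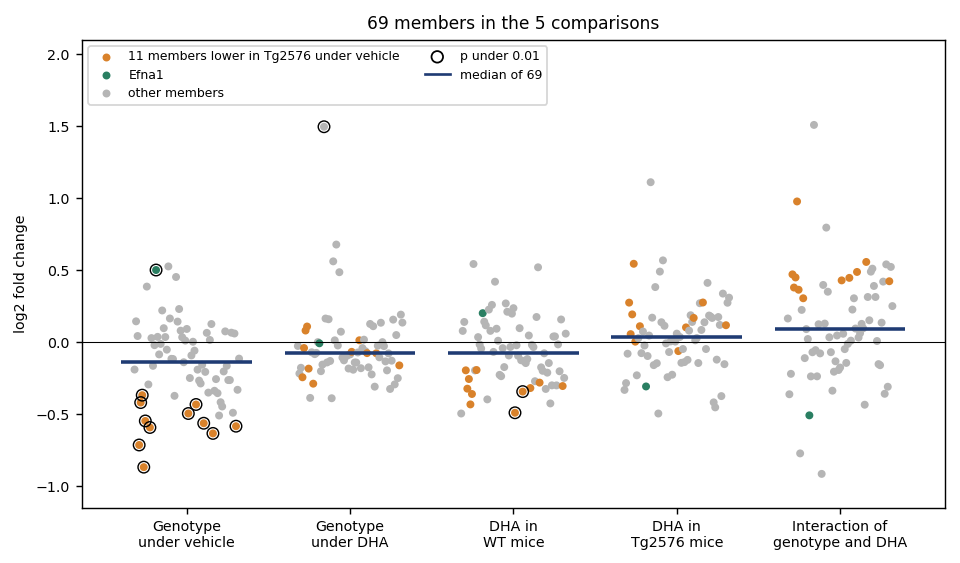
Log2 fold change of the 69 genes in the 5 comparisons, with the 11 genes lower under vehicle in orange, Efna1 in green, open circles around values with a p under 0.01 and a bar at the median of all 69. Circles number 12, 1, 2, 0 and 0 from left to right, and the orange points are drawn from mice that the comparisons share in part.

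The 11 genes lower under vehicle were also followed mouse by mouse, as a description, since the vehicle groups chose them. The median deviation of the 11 genes from their mean over all mice was computed on the log2 scale. It was 0.41, 0.58, 0.0137 and 0.29 in WT vehicle replicates 1 to 4 and -0.21, -0.13, -0.20 and -0.34 in Tg2576 vehicle replicates 1 to 4. In the groups given DHA it was 0.21, 0.00197, -0.16 and -0.0375 in WT and -0.32, 0.0147 and 0.0458 in Tg2576 mice. WT vehicle replicate 3 was nearer to Tg2576 vehicle replicates 1 to 3 than to any other WT vehicle mouse. It was also nearer to the DHA mice, except Tg2576 DHA replicate 1, which stood below the other mice of its group.

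Genes that act with these ligands and receptors were read from a list of 61 genes, all tested, with co-receptors, adaptors, kinases, cytoskeletal proteins and other signalling proteins. Under vehicle 4 of them were lower in Tg2576 mice at p under 0.01, where 1.93% of all genes were, and 0 were higher, with 44 negative values and a median of -0.11. The trend with gene length was not taken out of the values of this list. Tiam1, which activates Rac downstream of Ephb2, had a log2 fold change of -0.43 (standard error 0.103, edgeR adjusted p = 0.170). It was at 160.1, 166, 155 and 152 CPM in WT vehicle and 129, 115, 104 and 123 CPM in Tg2576 vehicle mice, without overlap. Kalrn, a signalling protein known from dendritic spines, had -0.37 (standard error 0.119, edgeR adjusted p = 0.297). Nrcam, an adhesion protein and co-receptor of neuropilins, had -0.43 (standard error 0.124, edgeR adjusted p = 0.224), and Neo1, a netrin receptor related to Dcc, had -0.40 (standard error 0.108, edgeR adjusted p = 0.204). Of the 16 cytoskeletal effectors 0 passed p under 0.01 with edgeR under vehicle and 2 had a p under 0.05, and their median was 0.00613. In WT mice Neo1 was also lower with DHA (log2 fold change -0.37, standard error 0.108, edgeR adjusted p = 0.594), in a comparison that shares the WT vehicle mice. The list had 0 genes at p under 0.01 with edgeR between genotypes under DHA, for DHA in Tg2576 mice and in the interaction, where 3, 2 and 6 had a p under 0.05, against 6.86%, 3.16% and 5.12% of all genes.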

How the data were processed

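Hippocampal RNA of 15 mice was sequenced. For the libraries, the paper names 1 μg of RNA and a stranded Illumina kit, whereas the labels give 1.3 μg and a SMARTER kit. The authors deposited raw read counts per gene of 55401 genes in GENCODE vM25 (GRCm38), counted with featureCounts without a strand setting, so reads of overlapping and antisense genes cannot be told apart. The submitters' processing notes name FastQC 0.11.8, STAR 2.6.1c and featureCounts 1.6.0. Symbols and gene types came from GENCODE vM21 (55141 genes matched), and the rule of symbols gave 69 protein-coding genes. These genes, the lists and the settings were chosen with earlier results of these data known.

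Counts were fitted with edgeR 4.0.16 in R 4.3.3 (filterByExpr with a minimum count of 10, 19536 genes, TMM factors 0.961 to 1.03, robust quasi-likelihood, 1 coefficient per group). Standard errors are the log2 fold change over the square root of F. The common biological coefficient of variation was 20.1%. Exact permutation tests used log2 CPM with a prior count of 2. Genes are named where a p was under 0.01 in any comparison and, per family, for the highest level and the lowest p under vehicle. Epha1, Epha2, Epha8, Epha10, Sema3a, Sema3b, Unc5a, Plxnd1, Dcc, Ephb1, Slit3, Robo2, Efnb2, Ntn3 and Ntn5, where outside this rule, were named after their values were seen. DESeq2 1.42.0, limma-voom (limma 3.58.1), no TMM, other filters, fits restricted to the compared groups, non-robust dispersions, a prior count of 0.5, a replicate block and each mouse left out were alternatives, and offsets for gene length and GC content (lowess span 0.3) were further settings, added once the data had been seen. The labels do not say that replicate numbers mark shared litters or days, and same-numbered mice did not deviate together. The workflow was tested on simulated data. Figures were drawn with Python 3.11.15 and matplotlib 3.10.9.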

Additional observations from a re-analysis of the deposited data

Results flagged for a closer look

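Among the 123 sets of 4 mice examined (41 guidance genes named in the text, in each group of 4), 6 held a mouse far from the other mice of its group. Such gaps arise by chance in about 1 of 20 groups. Efna1 was at 6.12 CPM in WT DHA replicate 1, below the 7.53 to 7.81 CPM of the other WT DHA mice. Sema3e was at 56.3 CPM in the same mouse, above 40.2 to 41.4 CPM in the others. Robo3, a receptor known from commissural neurons, was at 76.2 CPM in Tg2576 vehicle replicate 4, above 36.4 to 40.9 CPM in the other Tg2576 vehicle mice. Efnb2 was at 54.1 CPM in WT DHA replicate 2, above 32.6 to 36.0 CPM in the other WT DHA mice, and at 39.1 CPM in Tg2576 vehicle replicate 2, above 31.3 to 32.6 CPM in the other Tg2576 vehicle mice. Sema3b was at 20.4 CPM in WT DHA replicate 3, above 1.45 to 3.84 CPM in the other WT DHA mice. The causes of these gaps were not tested.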

How the results depend on the processing

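Of 374 recomputed values of single called genes, 331 kept direction and threshold, 43 lost the threshold (6 with all mice kept and 37 with 1 mouse left out) and 0 reversed. Under vehicle the count of called members was 12 with DESeq2, limma-voom, no TMM, at least 10 counts in every mouse or non-robust dispersions, 11 without a filter or with only the 2 groups, 10 with the length offset and 13 with the GC offset. The replicate block gave 14, 1, 2, 0 and 0 calls under vehicle, under DHA, in WT, in Tg2576 mice and in the interaction. Same-numbered mice had correlations of -0.244 to 0.213 (4 of 21 pairs over 0.1), so no pairing was shown, and the block ended no call. With at least 10 counts in every mouse, the count under DHA was 0, since Efna4 was then not tested. In WT mice it was 4 with DESeq2 and 4 with only the 2 groups compared. For the interaction it was 2 with DESeq2, 2 without TMM and 2 without a filter. The fits without 1 mouse gave 6 to 15 calls under vehicle, 0 to 2 under DHA, 0 to 8 in WT mice, 0 to 4 in Tg2576 mice and 0 to 4 in the interaction. The cause of these changes was not tested. Shares of all genes called in these settings and fits are not given, so the counts describe the guidance genes alone. The number of genes at the smallest exact p under vehicle was 8 with either prior count. Counting error limits Efna4, Epha1 and Epha2, which have at most 88 reads in any mouse, and with 3 Tg2576 DHA mice small differences may be missed.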
